A study of Rattus norvegicus with 9 samples.

Results

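Mpo, Elane, Prtn3 and Ctsg, which encode enzymes of the primary granule of neutrophil precursors, and Ms4a3, a gene of the same precursors, were followed through single-cell RNA sequencing (scRNA-seq) of the tibial osteotomy site of rats. They were picked by symbol, and all 5 were among the 41801 listed genes. Male Sprague-Dawley rats of 6 to 8 weeks carried a 3-mm circular osteotomy of the proximal tibia, in a model with a 4-mm skin wound on the foot. The TO group had the osteotomy alone, and the TOE group also received radial extracorporeal shock waves (rESWT) through the skin over the osteotomy on days 2 and 4. Tissue of the osteotomy site was taken in TO on day 2 at 0 and 4 h and on day 4 at 4 and 24 h, and in TOE on day 2 and on day 4 at 4 and 24 h after the session. Each of these 8 conditions was 1 library (10x Chromium 3′ gene expression), and TO on day 2 at 24 h was not analysed here. The sources give 9 rats for 9 samples without saying which animals entered which library, so no test at a single time was possible, every interval given here covers counting error only, and TOE and TO were tested only over the 3 times with both libraries.

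Primary, or azurophil, granules are the first granules a neutrophil precursor makes, at the promyelocyte stage in the bone marrow. Their proteins are transcribed in a short window, are packed for later release and stay in the mature neutrophil after the transcripts have gone. Defensins and then the secondary and tertiary granule proteins follow in later precursors. Mpo encodes myeloperoxidase, the haem enzyme that makes hypochlorous acid. Elane, Prtn3 and Ctsg encode the serine proteases neutrophil elastase, proteinase 3 and cathepsin G. Ms4a3 is no protease: it encodes a membrane protein of the MS4A family, known as a marker of granulocyte-monocyte progenitors.

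Promoter sequences are shown because the protease genes and Mpo varied together from cell to cell while Ms4a3 followed them weakly, and PU.1, C/EBP, RUNX and MYB factors are known regulators of such genes. The 250 bases before the start were taken from RefSeq on GRCr8, for 4 of the 5 genes (Elane has no entry in the table), with the letters GAGGAA, the core of a PU.1-type site, in capitals on either strand (TTCCTC on the other strand):
Mpo, chr10:73092152-73092401, plus strand: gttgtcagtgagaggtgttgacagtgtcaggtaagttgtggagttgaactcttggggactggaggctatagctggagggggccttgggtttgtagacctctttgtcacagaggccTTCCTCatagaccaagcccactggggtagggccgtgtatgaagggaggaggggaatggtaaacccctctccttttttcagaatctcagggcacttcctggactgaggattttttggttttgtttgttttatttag
Prtn3, chr7:10476197-10476446, minus strand: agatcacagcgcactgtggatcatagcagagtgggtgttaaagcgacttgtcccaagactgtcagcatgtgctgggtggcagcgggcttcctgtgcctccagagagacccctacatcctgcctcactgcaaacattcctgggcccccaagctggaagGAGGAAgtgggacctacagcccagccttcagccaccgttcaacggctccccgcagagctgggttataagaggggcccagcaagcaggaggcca
Ctsg, chr15:33907597-33907846, minus strand: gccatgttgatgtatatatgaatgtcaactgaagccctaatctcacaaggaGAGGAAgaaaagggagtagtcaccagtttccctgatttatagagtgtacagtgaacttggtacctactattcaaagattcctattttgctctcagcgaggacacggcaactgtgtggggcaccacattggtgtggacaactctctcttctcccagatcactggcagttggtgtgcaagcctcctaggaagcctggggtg
Ms4a3, chr1:217904908-217905157, minus strand: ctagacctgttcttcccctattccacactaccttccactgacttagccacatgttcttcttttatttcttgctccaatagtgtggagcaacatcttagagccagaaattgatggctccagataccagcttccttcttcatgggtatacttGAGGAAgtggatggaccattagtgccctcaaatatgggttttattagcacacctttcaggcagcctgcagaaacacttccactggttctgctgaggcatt

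Each of the 4 windows held the letters GAGGAA 1 time, as did 23.3% of 33469 rat promoters of the same length at least once. The C/EBP-type letters TTNNGNAA were in 2 of the 4 windows, those of Mpo and Ms4a3, and in 37.2% of all promoters. In Ms4a3 that match began 102 bases before the start and overlapped the GAGGAA, which began 100 bases before it. The RUNX-type letters TGTGGT were in the Ctsg window alone among the 4 and in 14.5% of all promoters. The short MYB-type letters AACNG were in 3 of the 4, Prtn3, Ctsg and Ms4a3, and in 75.2% of all promoters. Both strands were searched for each motif, and a match is a match of letters only.

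Of 116711 barcodes 110487 cells were kept, 11924 to 16227 per library, with median counts of 4477 to 5626 UMIs (unique molecular identifiers, each standing for 1 captured transcript) per cell and 90750330 to 135460050 UMIs per library. The cells formed 31 clusters, of which 23 were assigned to 11 classes, and 74.3% of cells were named. Library pairs shared 35 to 95 cell barcodes. Levels are per-million counts (CPM), that is, UMIs scaled by the total UMI count of the cells in question. UMIs were not divided by transcript length, and levels were not ranked between genes. Clusters were made without the 5 members among the variable genes. One library, TOE_4d_24h, stood apart: over all its cells the red cell gene Hba-a1 was at 42.8 CPM, against 3074 to 9838 CPM in the other libraries, the neutrophil gene S100a8 was at 25801 against 5325 to 7848 CPM, and the macrophage gene C1qa was at 9.77 against 22.6 to 80.8 CPM.

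The members were found mostly in 1 cluster. This granulocyte-monocyte progenitor-like cluster held 3428 cells (3.10% of all cells) and 81.8% of the 1023452 member UMIs (75.8% to 87.2% in single libraries). It held 73.6% of the Mpo UMIs, 83.8% of those of Elane, 84.9% of Prtn3, 81.5% of Ctsg and 84.3% of Ms4a3. Each member was highest there among the 11 classes, as were 553 of 21248 genes with enough UMIs (2.6%). The label was checked against markers that did not include the members: 3 of 10 progenitor markers were raised, but so were 3 of 14 neutrophil markers, and the leading genes were RatNP-3b, Defa5, Defa11, Np4, Prtn3, Elane, Ms4a3, Defa7, Ctsg and Defa10, defensins and members. Its name therefore rests on few markers, and its median cell had 16540.5 UMIs. The progenitor markers Cd34 and Kit were low in 2881 of its cells, the defensin-rich part described next. There Cebpe and the secondary granule gene Camp were high, with values given below. The name is kept as a label of the cluster and not as the stage of most of its cells.

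The cluster was made of 2 parts that other clusterings took apart. At Leiden resolution 2, 2881 of its cells went with a defensin-rich sub-cluster, whose UMIs were 22.6% defensin, and 494 with a defensin-poor one, whose UMIs were 0.22% defensin. The defensin-rich cells held 40.4% of all member UMIs and the defensin-poor cells, 0.447% of all cells, held 41.3%. Ms4a3 was spread differently from the rest: 72.6% of its UMIs lay in the defensin-rich and 11.5% in the defensin-poor cells, against 33.3% and 48.1% for Ctsg, 40.5% and 44.4% for Prtn3, 41.1% and 42.7% for Elane, and 41.7% and 31.8% for Mpo. With 50 components, another random seed, a stricter cell filter or doublets kept, the defensin-poor cells likewise joined a cluster named HSPC-like (haematopoietic stem and progenitor cells), and the progenitor-like class then held 39.2% to 40.5% of the member UMIs. Results of the cluster are therefore also given for each sub-cluster.

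Within the libraries, few cells carried the transcripts. Of all cells 40.7% had at least 1 member UMI, but 76.0% of these had only 1 or 2. The 293 richest cells (0.265%) held 50% of the member UMIs and 1835 (1.66%) held 90%. In single libraries 28 to 58 cells held 50%, so the counting intervals, which treat UMIs as independent, do not cover the sampling of cells. Inside the cluster the median cell gave 0.066% to 0.352% of its UMIs to the members and the highest cell 6.94% to 10.0%. Cells with all 5 members detected made up 25.7% to 48.9% of the cluster, and 13.1% to 32.2% once each cell was thinned to 2000 UMIs.

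**Figure D1:**
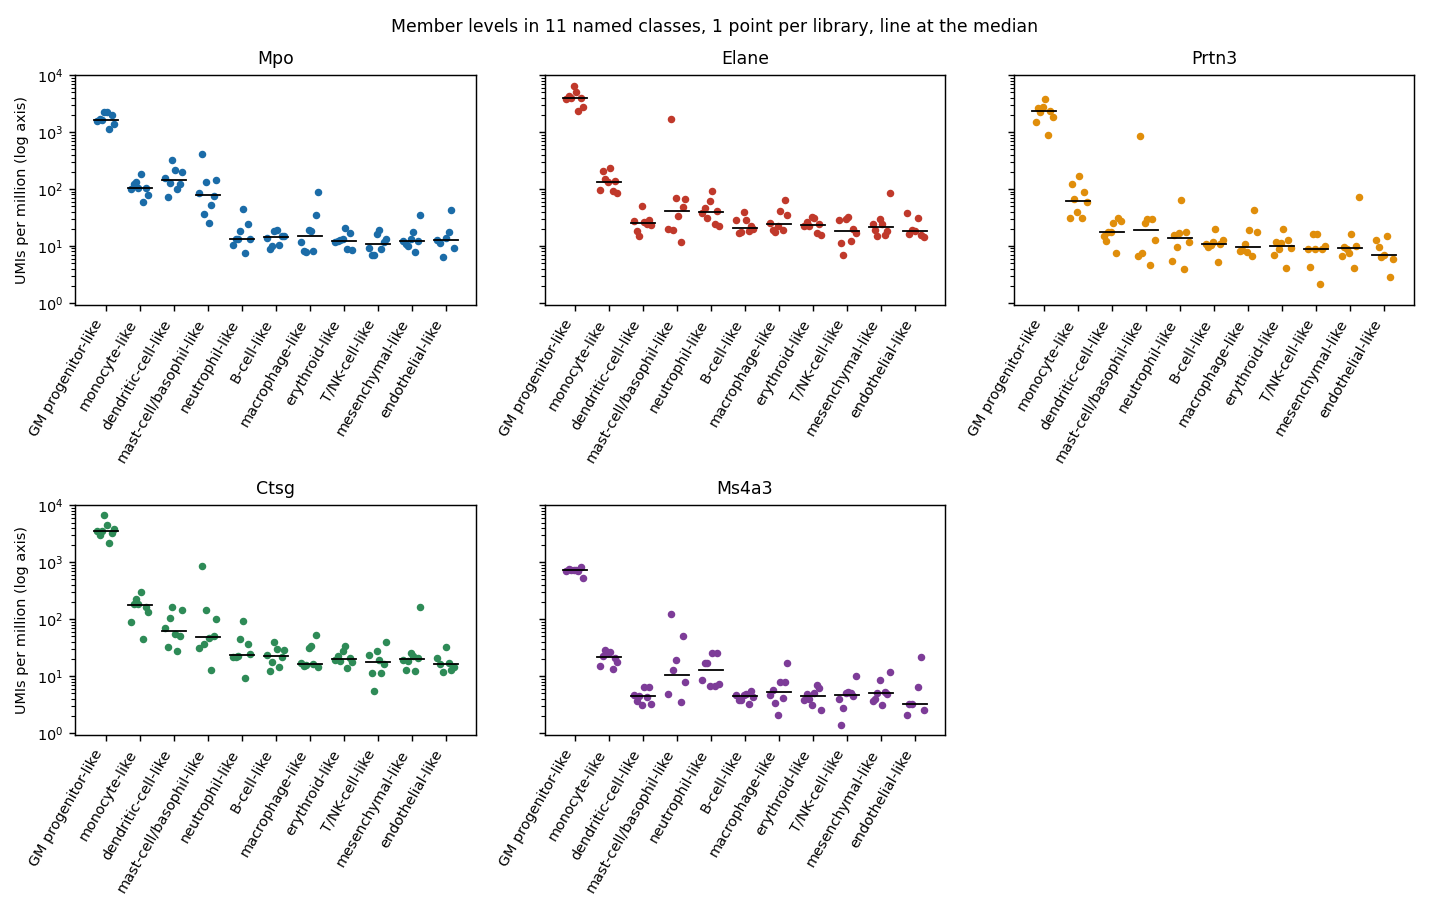
Level of each member (CPM, log axis) in the 11 named classes; each point is 1 library with at least 20 cells of the class, the line is the median over these, and a library at 0 cannot be drawn. All 5 members are highest in the granulocyte-monocyte progenitor-like (GM progenitor-like) class, and the highest Elane and Prtn3 points of mast-cell/basophil-like cells come from the library in which 1 cell held 1859 of 1929 member UMIs.

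In the cluster as a whole, the enzymes covered a wider range over libraries than Ms4a3 did. Mpo was at 1586, 1670, 1647 and 2228 CPM in TO_2d_0h, TO_2d_4h, TO_4d_4h and TO_4d_24h, and at 2290, 1145, 2019 and 1402 CPM in TOE_2d_4h, TOE_2d_24h, TOE_4d_4h and TOE_4d_24h. TOE_2d_4h and TO_4d_24h were the high libraries and TOE_2d_24h the low one, and TO_4d_4h and TO_2d_4h were the only neighbours in the order whose intervals overlapped.

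Of the serine proteases, Elane was at 3800, 4249, 3889 and 6420 CPM in the TO libraries and at 5118, 2344, 4025 and 2789 CPM in the TOE libraries, each in the same order of libraries. Prtn3 was at 1501, 2640, 2277 and 2749 CPM in TO and at 3741, 886, 2369 and 1855 CPM in TOE. Ctsg was at 3612, 3079, 3573 and 6696 CPM in TO and at 4517, 2162, 3231 and 3813 CPM in TOE. TOE_2d_24h was the lowest library for Mpo and for each protease, and the highest was TO_4d_24h for Elane and Ctsg and TOE_2d_4h for Mpo and Prtn3. TO and TOE libraries overlapped in range for every one of these genes. TOE_2d_24h has no TO library of its own time here, and none of these ranks was tested.

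Ms4a3 was at 715, 756, 740 and 731 CPM in the TO libraries and at 721, 718, 819 and 540 CPM in the TOE libraries. The highest was 1.52 times the lowest, against 2.00 for Mpo, 2.74 for Elane, 3.10 for Ctsg and 4.22 for Prtn3. In the defensin-rich cells Ms4a3 was again the lowest, with 1.61 against 2.29 to 4.27 for the others, but in the defensin-poor cells Ms4a3 was at 1.91, above Mpo (1.54), Elane (1.69) and Ctsg (1.72) and below Prtn3 (2.67). Of its 7 neighbours in the order, 5 had overlapping intervals, and the libraries set apart were TOE_4d_24h, the lowest, and TOE_4d_4h, the highest. The summed level of the members ran from 7256 CPM in TOE_2d_24h to 18823 CPM in TO_4d_24h.

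**Figure D2:**
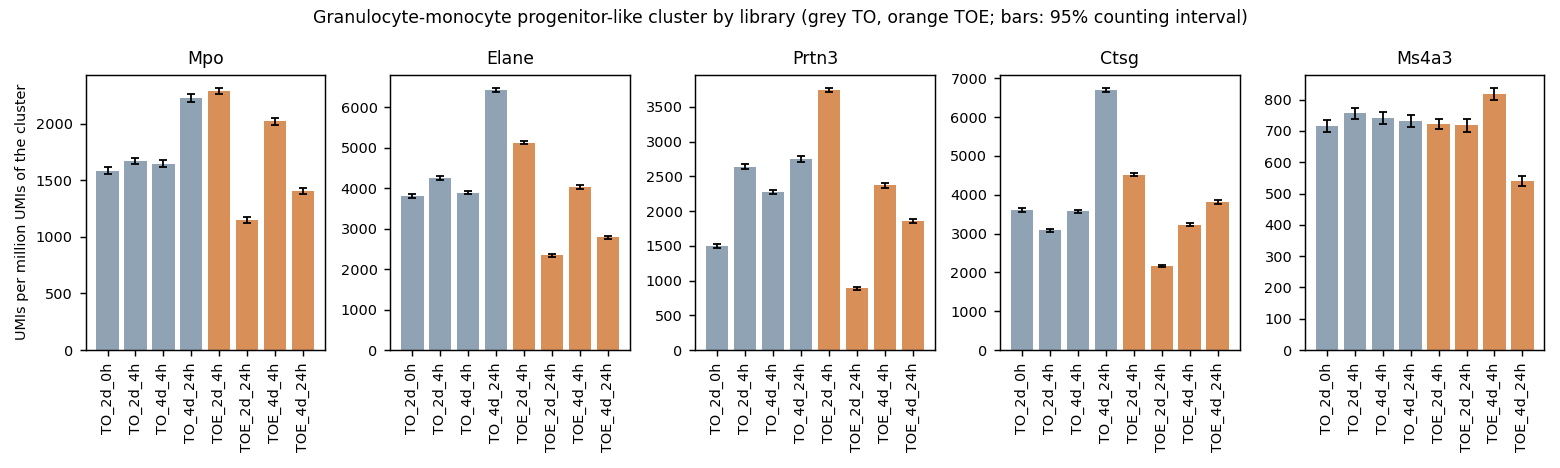
Level of each member in the granulocyte-monocyte progenitor-like cluster by library (bars start at 0; grey TO, orange TOE; error bars are 95% exact Poisson intervals, counting error only). Mpo, Elane, Prtn3 and Ctsg are lowest in TOE_2d_24h, while Ms4a3 lies between 715 and 819 CPM in 7 libraries and at 540 CPM in TOE_4d_24h.

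Cell by cell the proteases went together and Ms4a3 went with them only weakly. Over 3314 cells of the cluster thinned to 2000 UMIs, Pearson's r of the log2 counts was 0.93 for Elane with Ctsg, 0.92 for Elane with Prtn3 and 0.91 for Prtn3 with Ctsg. Mpo had r of 0.79 to 0.83 with the proteases. Ms4a3 had r of 0.25 to 0.33 with the other members. The cells share libraries and the pooled values hold differences between libraries, but within single libraries r was 0.88 to 0.95 among the proteases and 0.19 to 0.42 for Ms4a3 with the other members. Counting noise lowers r more for genes with fewer UMIs per cell. Over the cluster Ms4a3 was at 720 CPM, Mpo at 1795 CPM and the proteases at 2383 to 4160 CPM. Its part in the lower r of Ms4a3 was not tested. These values describe the cells and were given no test.

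The levels of Mpo and the proteases were higher in the defensin-poor than in the defensin-rich sub-cluster in 8 of 8 libraries, and that of Ms4a3 was lower in 8 of 8. With defensin UMIs left out of the totals Mpo was higher in 7 of 8, and the counts of the other members were the same. Over the libraries, Mpo had its lowest, median and highest level at 2482, 3079 and 3827 CPM in defensin-poor cells and at 872, 1294 and 1999 CPM in defensin-rich cells. Elane was at 6669, 8434 and 11242 CPM against 1265, 2839 and 5003 CPM. The ranges of the sub-clusters did not overlap for either gene in CPM, but those of Mpo did with defensin UMIs left out, at 2487 to 3832 against 1152 to 2592 CPM.

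Prtn3 was at 2868, 4711 and 7659 CPM (lowest, median, highest) in defensin-poor and at 573, 1676 and 2446 CPM in defensin-rich cells. Ctsg was at 6645, 9033 and 11428 CPM against 1135, 2209 and 3891 CPM. Ms4a3 was at 276, 407 and 528 CPM in defensin-poor and at 614, 823 and 990 CPM in defensin-rich cells. The ranges were apart for each of these genes in CPM, and with defensin UMIs left out for Ctsg and Ms4a3 but not for Prtn3, at 2874 to 7672 against 752 to 3100 CPM. The median within-library ratio of defensin-poor over defensin-rich was 2.48 for Mpo, 3.68 for Elane, 3.50 for Prtn3 and 4.04 for Ctsg, and the ratio the other way was 2.12 for Ms4a3. With defensin UMIs left out these ratios were 1.88, 2.85, 2.70 and 3.18, and 2.76 for Ms4a3. The sub-clusters were chosen after the data had been seen and come from the same cells, and so these are descriptions.

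Other genes differed between the sub-clusters too, of which the defensin-poor one was set apart by joining an HSPC-like cluster. Cd34 and Kit, surface proteins of progenitors, were at 30.8 and 23.3 CPM, against 0.31 and 1.86 CPM in the defensin-rich cells. Calr, the chaperone calreticulin, which binds nascent myeloperoxidase, was at 1647 against 308 CPM, and Irf8, a factor of the monocyte and dendritic lineage, at 75.1 against 5.72 CPM. Cebpe, a factor of late granulocyte precursors, was at 57.5 against 264 CPM, and Camp, a secondary granule gene, at 133 against 13527 CPM. Of 13298 genes with at least 50 UMIs, 26.1% were over 2-fold higher in defensin-poor and 13% in defensin-rich cells, or 16.2% and 19.0% with defensin UMIs left out of the totals. Of 10 chaperones of the endoplasmic reticulum, 8 were higher in defensin-poor cells and 0 in defensin-rich cells on both scales, while 12 of 13 secondary and tertiary granule genes were higher in defensin-rich cells and 0 in defensin-poor cells on both. Of 14 early granulocyte transcription factors 3 were higher on each side, and of 12 other primary granule genes 2 on each side. Of the members 4 were over 2-fold higher in defensin-poor cells, or 3 with defensin UMIs left out, when Mpo was at 3115 against 1782 CPM. Ms4a3, 1 of the 5 members, was over 2-fold higher in defensin-rich cells on both scales.

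Arranged by the share of a cell's UMIs that were defensin, the members did not peak in the same cells. Because defensins took up to over 40% of a cell's UMIs, levels here are CPM with defensin UMIs left out of the total, pooled over libraries. Elane was at 5445 in cells with under 0.1% defensin, 11704 at 0.1 to 1%, 9953 at 1 to 5% and 508 at 40% and over. Ctsg went from 6529 to 11352 and 8694 and then to 397 over the same ranges, and Prtn3 from 3083 to 7060 and 5888 and then to 186. In these pooled values the proteases were highest at 0.1 to 1% defensin, a range of 266 cells. The range under 0.1% had a median defensin share of 0.068%. In B-cell-like cells the defensins RatNP-3b, Defa5 and Np4 were at 327, 224 and 219 CPM. Median depths were 33530 UMIs under 0.1%, 21721.5 at 0.1 to 1%, 9763 at 1 to 5% and 18181 at 40% and over. The part of free RNA and of depth in these levels was not tested. By library the wider range of 1 to 10% was above that under 1% in 3 of 8 libraries for Elane, 4 for Prtn3 and 3 for Ctsg, and the ranges after it were lower in 8 of 8 for each.

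Mpo varied less over the same ranges, from 2443 in cells with under 0.1% defensin through 3687 at 0.1 to 1% to 1200 at 40% and over. Ms4a3 went from 226 to 570 and then up to 1739 on the same scale at 40% and over, its highest range. Over 4 wider ranges by library, the first (under 1%) over the last (30% and over) had a median of 1.84 for Mpo (1.30 to 3.37), 7.07 for Elane (4.65 to 19.9), 9.67 for Prtn3 (4.29 to 41.5) and 14.7 for Ctsg (5.42 to 32.0), above 1 in 8 of 8 libraries. For Ms4a3 the last over the first was 4.34 (2.98 to 6.47), above 1 in 8 of 8. The direction was the same for each member when defensin UMIs were kept in the total. The ranges are ranges, not types, and were set after the data had been seen: of 3428 cells, 47 lay within 20% of the 1% cut, 260 of the 10% cut and 829 of the 30% cut.

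**Figure D3:**
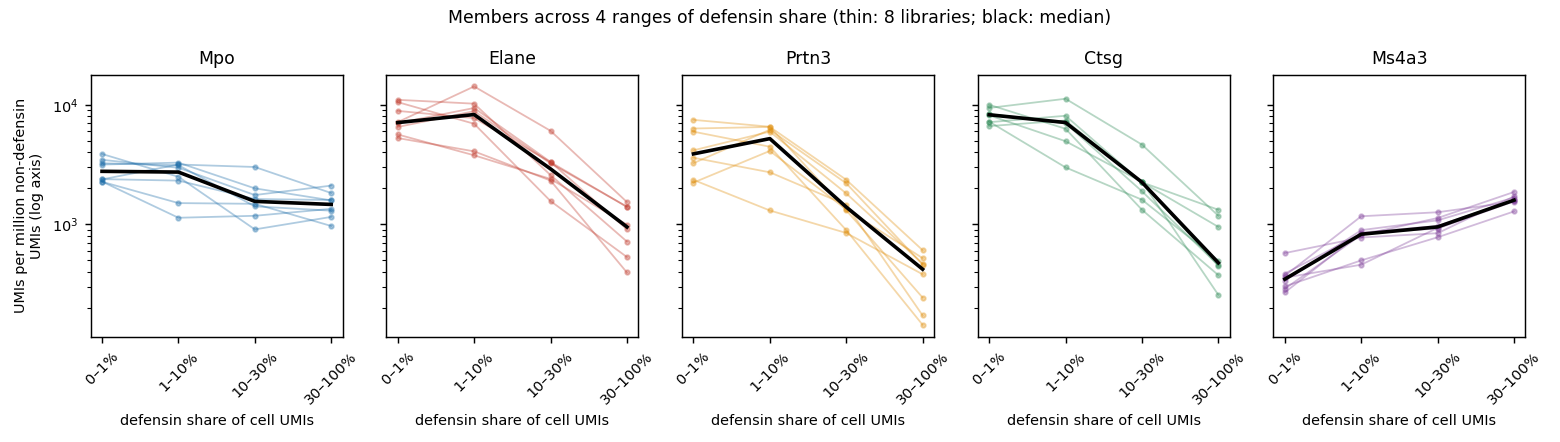
Level of each member (CPM with defensin UMIs left out of the total, log axis) in cells of the cluster grouped by the defensin share of their UMIs; thin lines are the 8 libraries and the black line their median. From the first to the last range the proteases are 7.07 to 14.7 times lower by the median, Mpo 1.84 times lower and Ms4a3 4.34 times higher.

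Outside the cluster, the level in B-cell-like cells served as background, since B cells should lack these transcripts and free RNA in the droplets adds UMIs to every cell. In B-cell-like cells the summed level was 50.9 to 113 CPM over the libraries, and 15.8% to 32.8% of cells had a member UMI (8.43% to 19.1% after thinning to 2000 UMIs), at median depths of 3546 to 4239 UMIs. In the progenitor-like cluster 86.1% to 98.4% had one (64.5% to 84.4% after thinning), at 13288 to 23473 UMIs. B-cell-like cells had Mpo at 0.090 times its level in the whole library by the median, Elane at 0.072, Prtn3 at 0.061, Ctsg at 0.079 and Ms4a3 at 0.080. In single libraries these ratios ran from 0.037 to 0.126, and that of the sum from 0.042 to 0.111. Of 11 reference transcripts of other cell types, 10 were there at 0.054 (S100a9 of neutrophils) to 0.110 times (C1qb of macrophages), among them Camp at 0.068 and Col1a1 at 0.071. The other, Ltf of secondary granules, was at 2.41 times (1.88 to 4.17), with levels of 0.85 to 3.66 CPM in B-cell-like cells. The mix of the members in B-cell-like cells, by median 17.7% Mpo, 31.2% Elane, 14.9% Prtn3, 29.4% Ctsg and 6.1% Ms4a3, lay within 3 percentage points of that in all cells for each gene, and B-cell-like levels are used here as the level to compare with. Whether free RNA accounts for all of them was not tested.

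T/NK-cell-like, erythroid-like, endothelial-like and mesenchymal-like cells and macrophage-like cells had summed levels of 0.79 to 1.07 times that of B-cell-like cells by the median over libraries. These classes were deeper: median cells had 19960 to 41912 UMIs in mesenchymal-like and 4924 to 32766.5 in erythroid-like cells, against 3546 to 4239 in B-cell-like cells. At equal CPM a deeper cell holds more member UMIs, and whether free RNA accounts for them was not tested. Among high values in single libraries, some rested on single cells. In mesenchymal-like cells of TOE_4d_24h, 1 cell held 623 of 727 member UMIs, and the level of 363 CPM was 52.8 CPM without it. In macrophage-like cells of TOE_4d_4h, 1 cell held 905 of 1359, and 201 CPM became 67.8 CPM.

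Monocyte-like cells had each member above the B-cell-like level in 8 of 8 libraries, with intervals apart. Their lowest, median and highest level over the libraries was 59.6, 104 and 180 CPM for Mpo, 83.4, 134 and 234 CPM for Elane and 30.7, 62.5 and 169 CPM for Prtn3. Ctsg was at 44.5, 175 and 297 CPM and Ms4a3 at 13.3, 21.7 and 28.9 CPM. These were 6.97, 5.62, 6.32, 6.12 and 4.77 times the B-cell-like level by the median, in the order of the genes above.

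The monocyte-like level was again carried by few cells and not by all clusters of the class. In the clusters led by Mnda and Fcnb (2731 cells), by Krt76 and Cd14 (2873 cells) and by Htr7 and Vcan (5149 cells), the sum was at 551, 328 and 678 CPM, and 24, 31 and 42 cells held 50% of it. The fourth cluster, led by Adgre4 and Treml4, markers of the patrolling kind of monocyte, was at 79.1 CPM, 1.01 times the B-cell-like level. All these sums were pooled over libraries. In single libraries they ran, in turn, from 361 to 773, 83.1 to 524, 41.3 to 1010 and 13.3 to 111 CPM. They covered 8, 4, 7 and 7 libraries, so the clusters were not compared within the same libraries. In TO_4d_24h, 1 monocyte-like cell held 2350 of 8783 member UMIs, and the sum of 487 CPM was 358 CPM without it. The share of monocyte-like cells with a member UMI was 49.5% to 67.4%, and 12.9% to 26.7% after thinning (the clusters' median cells had 4426 to 16711 UMIs, those of B-cell-like cells 3546 to 4239).

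In neutrophil-like cells the levels were near background, with Elane and Ms4a3 as exceptions. There Elane was above the B-cell-like level in 7 of 8 libraries, at a median of 39.7 CPM (up to 93.0), 1.68 times that level. Ms4a3 was above it in 7 of 8 as well, at 12.7 CPM (6.67 to 25.3), 3.28 times that level. Mpo was above it in 3, Prtn3 in 4 and Ctsg in 4 of 8 libraries, at medians of 1.16 to 1.21 times. By cluster the values lay apart. In the one led by Ngp, Lcn2 and Cd177, genes of the secondary granule stage, Ms4a3 was 4.55 times the B-cell-like level. There Prtn3 was 1.71, Elane 1.48, Ctsg 1.44 and Mpo 1.33 times that level. In the cluster led by Hcar2, Csta3 and Prok2, Elane was 2.43, Ctsg 1.32, Prtn3 1.31, Ms4a3 1.17 and Mpo 1.02 times that level. In TOE_2d_4h, 1 neutrophil-like cell held 1177 of 2513 member UMIs, and 319 CPM was 170 CPM without it.

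Dendritic-cell-like cells held Mpo, with Elane near background. The class had 8 of 12 dendritic-cell markers raised and also 5 of 10 HSPC markers. Mpo was above the B-cell-like level in 8 of 8 libraries, at a median of 142 CPM (71.2 to 318), 11.5 times that level, and Ctsg in 8 of 8 at 62.5 CPM (27.2 to 166), 2.82 times. Prtn3 was above it in 5 of 8 at 17.3 CPM, 1.44 times. Elane was above it in 1 of 8 and Ms4a3 in 0 of 8, at 25.1 and 4.44 CPM. Mpo was thus 54.5% of the member UMIs in this class (47.6% to 65.7%), against 13.8% (11.8% to 16.2%) in the progenitor-like cluster, and the ranges were apart.

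The Mpo of the class lay mostly in cells that also held progenitor genes. The 701 cells that resolution 2 put with the defensin-poor cells, with Meis1, Flt3 and Cd34 at 330, 292 and 72.5 CPM, had Mpo at 372, Ctsg at 163 and Elane at 38.1 CPM. The other 1407, with Siglech and Irf8, genes of plasmacytoid dendritic cells, at 549 and 580 CPM, had Mpo at 17.8, Ctsg at 20.9 and Elane at 20.5 CPM. Mast-cell/basophil-like cells were alike in this: Mpo was above background in 7 of 8 libraries, at a median of 79.9 CPM, and 114 cells in the same resolution 2 cluster had it at 412 CPM against 19.9 CPM in the other 707. Their TO_2d_4h value was set by 1 cell, which held 1859 of 1929 member UMIs (3933 CPM with it, 159 CPM without it).

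**Figure D4:**
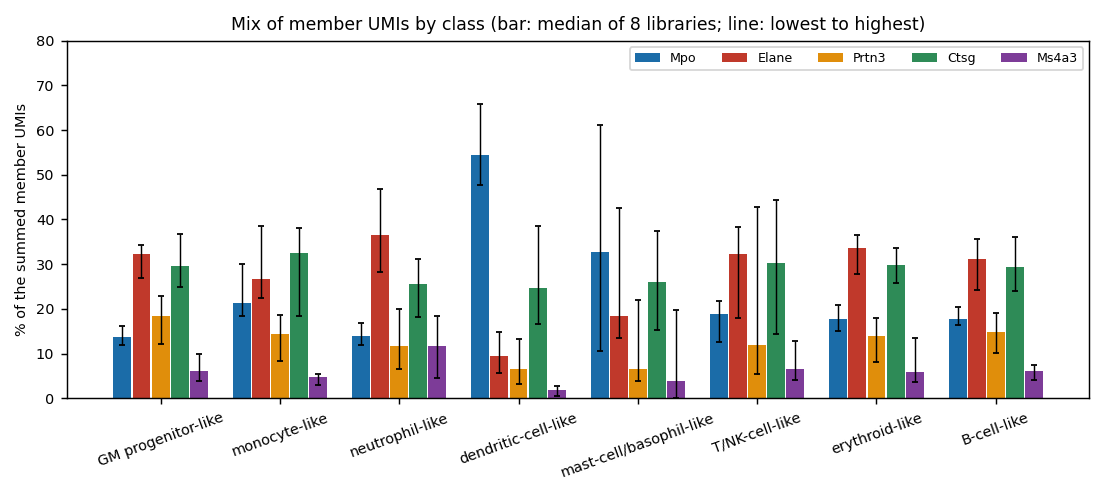
Share of each member in the summed member UMIs of 8 classes (bar, median of 8 libraries; line, lowest to highest library). The median share of Mpo is 54.5% in dendritic-cell-like and 32.8% (10.5% to 61.1%) in mast-cell/basophil-like cells. It is 17.7% in B-cell-like (16.3% to 20.3%) and erythroid-like cells (14.9% to 20.9%), against 13.8% (11.8% to 16.2%) in progenitor-like cells. The B-cell-like range of Mpo lies above the progenitor-like one, and the erythroid-like range overlaps it. For the other members the ranges of both classes overlap those of progenitor-like cells.

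Unnamed clusters of few UMIs held a further 1.85% of the member UMIs. In a cluster of 2064 cells led by haemoglobin genes, Prtn3, Mpo and Elane, with a median of 1875 UMIs per cell, the sum was 2424 CPM, and 1990 of its cells were from TO_2d_4h. That library had the lowest share of its member UMIs in the progenitor-like cluster, 75.8%. A cluster of 4210 cells led by Bglap and Col1a1, with a median of 792 UMIs, had a sum of 1293 CPM. In an unnamed cluster of 2589 cells led by Dntt, Mpo was at 2.19 times the B-cell-like level and above it in 6 of 8 libraries, and the other members at 0.84 to 0.98 times. Low UMI counts went with the former pair, and their part in these levels was not tested.

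TOE was set beside TO at the 3 times with both libraries, to ask what differed with rESWT. On day 2 at 4 h, the progenitor-like cluster had the members at 12394 CPM in TO (453 cells) and 16388 CPM in TOE (572 cells). TOE over TO was 1.32 for the sum (95% interval 1.31 to 1.33), 1.37 for Mpo, 1.20 for Elane, 1.42 for Prtn3, 1.47 for Ctsg and 0.95 for Ms4a3. No member passed 2-fold, which 5.46% of 10845 genes did upward and 1.8% downward. In all cells the sum was 1.44 times as high in TOE (1.43 to 1.45), and none of the members passed 2-fold, against 4.6% of genes upward and 5.01% downward.

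The higher level at that time went with more defensin-poor cells, 102 of 572 in TOE against 43 of 453 in TO. Within defensin-poor cells the sum was lower in TOE, with a ratio of 0.89 (0.88 to 0.90), and Mpo was at 1.06, Elane at 0.80, Prtn3 at 0.83, Ctsg at 0.99 and Ms4a3 at 0.88. Within defensin-rich cells the ratio was 1.22 (1.21 to 1.23), with 1.24 for Mpo, 1.09 for Elane, 1.44 for Prtn3, 1.26 for Ctsg and 1.10 for Ms4a3. No member passed 2-fold in either sub-cluster, against 4.36% of genes upward and 0.611% downward in defensin-poor and 2.64% and 1.33% in defensin-rich cells. Whether the makeup of the cluster accounts for the ratio was not tested.

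On day 4 at 4 h the sum in the cluster was 12125 CPM in TO and 12462 CPM in TOE, a ratio of 1.03 (1.02 to 1.04). Mpo was at 1.23, Elane at 1.03, Prtn3 at 1.04, Ctsg at 0.90 and Ms4a3 at 1.11. No member passed 2-fold, against 1.22% of 10477 genes upward and 2.25% downward in the cluster, nor in all cells, where 1.75% and 2.94% did and the sum was at 1.03. The sub-clusters lay on opposite sides of 1, with 0.74 (0.73 to 0.75) in 36 TO and 46 TOE defensin-poor cells and 1.16 (1.15 to 1.18) in defensin-rich cells, with no member past 2-fold in either (1.91% of genes upward and 1.2% downward, and 0.954% and 3.01%). Defensin-poor cells made up 8.20% of the cluster in TO and 14.5% in TOE, against 9.49% and 17.8% on day 2 at 4 h.

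On day 4 at 24 h the members were lower in TOE, in a library that stood apart from the rest. Its low red cell and macrophage and high neutrophil transcripts are given above, their part in the results at that time was not tested, and without it no pair of that time remains. The sum in the cluster was 18823 CPM in TO (378 cells) and 10399 CPM in TOE (500 cells), a ratio of 0.55 (0.55 to 0.56). Elane was at 0.43 (0.43 to 0.44), Ctsg at 0.57, Mpo at 0.63, Prtn3 at 0.67 and Ms4a3 at 0.74. Elane was the 1 member past 2-fold, which 4.59% of 10091 genes passed downward and 8.09% upward. In all cells the sum was at 0.73 (0.72 to 0.73), with Elane at 0.58, Prtn3 at 0.93 and Ms4a3 at 0.96, and none passed 2-fold, against 6.92% of genes downward and 16% upward.

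The ratio was furthest from 1 in the defensin-rich cells. There the sum was 13803 CPM in TO (284 cells) and 4825 CPM in TOE (383 cells), a ratio of 0.35 (0.34 to 0.35). Elane was at 0.25 (0.25 to 0.26), Ctsg at 0.32, Prtn3 at 0.43, Mpo at 0.44 and Ms4a3 at 0.62, so 4 of 5 members were past 2-fold lower, against 5.19% of genes (6.5% passed it upward). In the defensin-poor cells, 92 in TO and 90 in TOE, the sum was at 1.08 (1.07 to 1.09), with Prtn3 at 1.30, Mpo at 1.21, Ctsg at 1.12, Ms4a3 at 1.01 and Elane at 0.89, and none passed 2-fold (1.74% of genes downward, 5.66% upward). By defensin range the summed ratio was 0.87 under 1%, 0.38 at 1 to 10%, 0.49 at 10 to 30% and 0.46 at 30% and over, below 1 in each. Outside the cluster the sum was at 0.59 (0.57 to 0.60) at this time, against 0.98 (0.97 to 1.00) on day 2 and 1.43 (1.40 to 1.45) at the earlier hour of day 4. Whether the sub-clusters differed in their ratios was not tested. With 1 library a condition, a difference of the treatment and one of the animals cannot be told apart.

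The 3 times are different conditions, and taken as 3 pairs they gave no member a p under 0.25. In the cluster the mean log2 ratio of the sum was -0.14 ± 0.65 (SD over times, n = 3), above 0 at 2 of 3 times, with p = 1 in a two-sided exact permutation test that flips the sign of each time. Over 24 such tests (each member and the sum in all cells, the cluster and both sub-clusters) p ran from 0.25, the smallest that 3 pairs allow, to 1, and each adjusted p was 1 by Benjamini-Hochberg. The p of 0.25 was that of Elane in defensin-poor cells (exact permutation test), at -0.32 ± 0.16 and lower in TOE at 3 of 3 times.

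Cells rich in members were also counted. Cells with at least 1% of their UMIs from the members were 148 of 378 in the cluster in TO_4d_24h (39.2%) and 116 of 500 in TOE_4d_24h (23.2%), a ratio of 0.59 (0.46 to 0.76). At 2d 4h they were 98 of 453 (21.6%) and 150 of 572 (26.2%), a ratio of 1.21 (0.93 to 1.58), which is within counting error of cells. At 4d 4h they were 72 of 439 (16.4%) and 76 of 318 (23.9%), a ratio of 1.46 (1.04 to 2.04), although among all cells of the libraries they were at 0.67 (0.51 to 0.89). Outside the cluster such cells numbered 51 in TO_4d_4h and 14 in TOE_4d_4h. They numbered 13 and 23 at 2d 4h and 51 and 10 at 4d 24h, in TO and TOE in turn. Among all cells the ratio on day 2 was 1.42 (1.11 to 1.82), and the later hour of day 4 gave 0.73 (0.58 to 0.92). This cut was chosen after the data had been seen, and 20 to 42 cells per library lay within 20% of it.

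**Figure D5:**
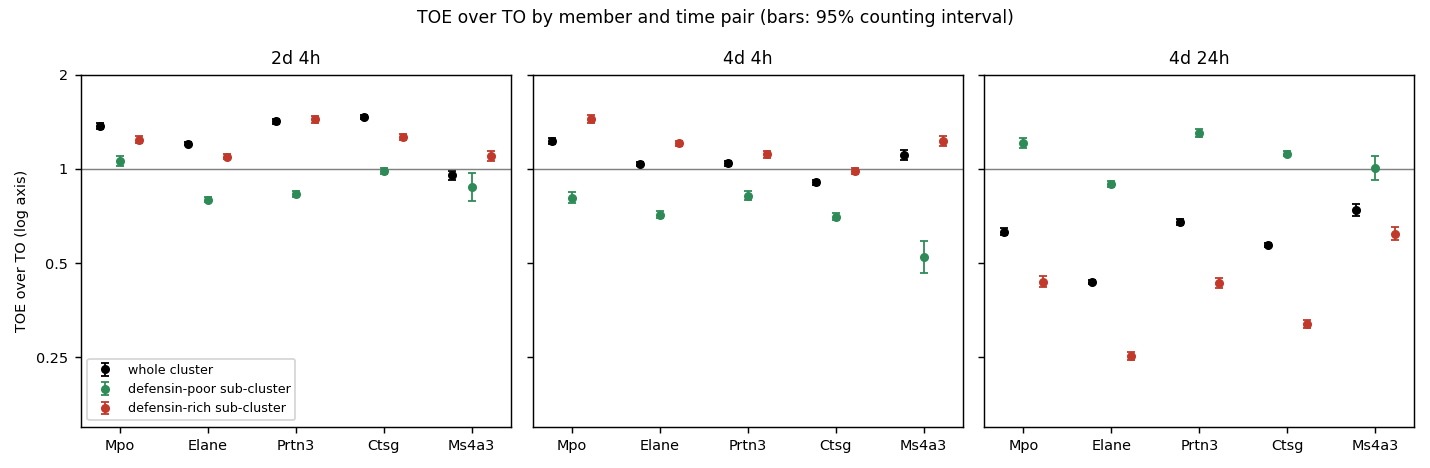
TOE over TO of each member's level (log axis, grey line at 1) at the 3 times with both libraries, in the whole progenitor-like cluster (black) and its defensin-poor (green) and defensin-rich (red) sub-clusters; error bars are 95% counting intervals. At 4d 24h the defensin-rich values run from 0.25 for Elane to 0.62 for Ms4a3 while the defensin-poor values lie between 0.89 and 1.30.

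Genes of the later granules went the other way at 4d 24h. In the cluster 8 of 13 measured secondary and tertiary granule genes were over 2-fold higher in TOE (Camp, Ngp, Lcn2, Cd177, Pglyrp1, Mmp8, Mmp9 and Orm1) and none lower, with a median log2 ratio of 1.29, against -0.67 for the members and -0.04 for all genes (8.09% of which passed upward). In all cells at that time 10 of 14 of the list were over 2-fold higher, against 16% of all genes, with a median of 1.42, and the B-cell-like level of Camp was 334 CPM in TOE and 105 CPM in TO. Camp, the cathelicidin of secondary granules, was at 15579 CPM in TOE and 6388 CPM in TO, a ratio of 2.44 (2.41 to 2.47). Of 10 chaperones, Pdia3 and Pdia6, which form disulfide bonds, were over 2-fold lower at 0.50 and 0.48, against 4.59% of all genes, none was higher, and the median log2 ratio was -0.87. Of 6 measured defensins Defa10 was over 2-fold higher, with a median of 0.45, and 0 of 7 haem synthesis genes passed in either direction, with a median of -0.80.

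In the cluster at 2d 4h the median log2 ratio was 0.71 over the chaperones and 0.46 over the members, against 0.18 for all genes, with 0 of 10 and 0 of 5 past 2-fold. The monocyte-side progenitor genes had a median of 0.81 there, with 3 of 8 over 2-fold higher (Irf8, Ly86 and Mpeg1) against 5.46% of all genes, then one of 0.38 at 4d 4h with 2 of 8 higher (Csf1r and Ccr2, against 1.22%), and one of -0.79 at 4d 24h with 3 of 8 lower (Cd14, Klf4 and Mpeg1, against 4.59%). The secondary and tertiary granule genes had a median of -0.18, with Hp higher, and the defensins one of -0.35. At 4d 4h the medians were 0.39 for the chaperones, 0.06 for the members and 0.60 for the secondary and tertiary granule genes, 4 of 13 of which were over 2-fold higher (Ngp, Lcn2, Mmp8 and Hp), against 1.22% of all genes. Other primary granule genes had 0 of 11 past 2-fold at each of the 3 times in the cluster. Of early granulocyte transcription factors, 1 of 14 was over 2-fold higher at 2d 4h (Irf8 again), 0 passed at 4d 4h, and 2 were lower at 4d 24h (Cebpb and Klf4), against 4.59%. Of 16 cell cycle genes none passed 2-fold at any of the 3 times.

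Over 87 sums of a class in a library, the genes most like the mean of the members among 16374 were LOC120094379, LOC108351956, Defa7, Np4, Defa5, Defa11, RatNP-3b, Spag4, Mycbp and Defa10, with Pearson's r of 0.80 to 0.88 on the log2(CPM + 1) scale. Of these 10, 6 are defensins. Without the sums of the progenitor-like cluster r was 0.20 to 0.66 over 79 sums, so the likeness rests largely on that cluster. The classes share libraries and depth, and r was given no test.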

How the data were processed

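scRNA-seq libraries of the rat tibial osteotomy site were analysed from the deposited matrices, which hold counts of UMIs per gene and barcode, not normalized. Per the labels the authors made these counts with Cell Ranger 9.0.0, and the processing notes also list Seurat, R 4.0.3 and the builds mRatBN7.2 and GRCh38 without a role. All 8 matrices used hold 1 library each, and TO_2d_24h was not analysed here.

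A barcode needed 200 or more detected genes and no more than 20% of UMIs from mitochondrial genes, and was dropped as a doublet at a Scrublet score over 0.25 (expected rate 8%). With scanpy 1.11.5, 2000 variable genes without the 5 members, 30 components and 15 neighbours entered Leiden clustering at resolution 1, with no integration of libraries. A cluster was named where at least 3 markers of a class were raised 3-fold in at least 10% of its cells, unless its leading genes held more markers of another class. Levels are CPM with exact Poisson intervals, shares have exact Clopper-Pearson intervals and ratios exact conditional intervals, all at 95%. PCR copies are removed by UMIs, and the intervals cover counting error only. The count of genes past 2-fold took those reaching 50 UMIs in both libraries of a pair together, and log2 ratios had 0.5 UMI added. In simulated pairs with 10069 to 18706 genes tested, 186 to 198 of 200 genes given 3- or 4-fold changes reached that minimum, and 100% of these were recovered. Of the unchanged genes 0.0444% to 0.162% passed. The simulated pairs held counting noise only, with no difference between animals. Recovery at a 2-fold cut was therefore nearly fixed in advance and does not bear on smaller ratios. Other tools were igraph 0.11.9, scipy 1.17.1, numpy 2.4.6 and matplotlib 3.10.9 under python 3.11.15.

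The genes named in the text are the members, the markers and gene lists, the leading genes of clusters and the 10 genes most like the members' mean. The members and lists were chosen with earlier results of these data known. The resolution 2 sub-clusters, the defensin ranges, the cut at 1% member UMIs and the exclusion of single cells were chosen after the data had been seen. TOE and TO were compared over the 3 matched times by an exact sign-flip permutation test of the log2 ratios, added after the data had been seen. Alternatives were other cell filters, clusterings, scalings and minimum counts.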

Additional observations from a re-analysis of the deposited data

Results flagged for a closer look

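The TOE over TO ratios of the members in the granulocyte-monocyte progenitor-like cluster lay on different sides of 1 at different times, with 1 library on each side, and the difference between times was not tested. For Mpo the ratio was 1.37 at 2d 4h, then 1.23 and 0.63 at the 4 h and 24 h points of day 4. Elane was at 1.20 and 1.03 and then at 0.43, and Prtn3 at 1.42 and 1.04 and then at 0.67. Ctsg was at 1.47 at 2d 4h, and at 0.90 and 0.57 at 4d 4h and 4d 24h. Ms4a3 was at 1.11 at 4d 4h, and at 0.95 and 0.74 at 2d 4h and 4d 24h. The sum of the members was at 1.32, 1.03 and 0.55 in the order of the times.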

How the results depend on the processing

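The share of member UMIs in the progenitor-like cluster (81.8%) and its summed level (12924 CPM) turned on whether the defensin-poor cells were in it. They became 40.6% and 8581 CPM at Leiden resolution 2, 39.2% and 7585 CPM with 50 principal components, 39.8% and 8457 CPM with random seed 1, 40.4% and 9674 CPM with a stricter cell filter, 40.5% and 8158 CPM with doublets kept, 80.1% and 12273 CPM with no cell filter, and 90.8% and 11282 CPM with the members allowed among the variable genes, where no cluster took the name and the 4017 cells of clusters made mostly of its cells were used. The share was 83.3% without the unnamed clusters of low UMI count, and the geometric mean of the members was 2182 CPM. At resolution 0.5 no cluster took the name, since its cells joined a neutrophil-like cluster of 7238 cells, and no value was given.

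In the cluster at 2d 4h the summed ratio of 1.32 became 1.20 (resolution 2), 1.24 (seed 1), 1.21 (members allowed), 1.26 (stricter filter), 1.15 (doublets kept), 1.19 (median ratio scaling), 1.27 (geometric mean), 1.25 (without defensin UMIs) and 1.22 (defensin-rich only), and turned to 0.89 in defensin-poor cells. At 4d 4h the 1.03 became 1.16, 1.35 (50 components), 1.18 (seed 1), 1.18 (stricter filter, 1.176), 1.12 (doublets kept), 1.10 (median ratio), 1.06 (geometric mean) and 1.16 (defensin-rich), and turned to 0.97 with members allowed, 0.98 with no filter and 0.74 in defensin-poor cells. At 4d 24h the 0.55 became 0.35 (resolution 2, 0.347), 0.37 (50 components), 0.36 (seed 1), 0.60 (members allowed, 0.604), 0.33 (stricter filter, 0.333), 0.33 (doublets kept, 0.329), 0.56 (median ratio), 0.60 (geometric mean), 0.58 (without defensin UMIs) and 0.35 (defensin-rich), and turned to 1.08 in defensin-poor cells. The cause of these turns was not tested.

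In all cells the ratios of 1.44, 1.03 and 0.73 became 1.39 (1.386), 1.10 and 0.64 under median ratio scaling and 1.39 (1.392), 1.05 and 0.78 with the geometric mean. Without the low-UMI clusters the first was 1.48 and the last 0.74, which was 0.72 (0.715) with the stricter filter and 0.72 (0.721) with doublets kept.

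Genes past 2-fold in the cluster numbered 787, 364 and 1279 in the order of the times with at least 50 UMIs, 1312, 781 and 1945 with at least 20, and 313, 100 and 563 with at least 200. In all cells they were 1762 at 2d 4h and 1029 with at least 200 UMIs, and 879 at 4d 4h, 1341 with at least 20 and 476 with at least 200. By replicate number, no paired analysis was possible because each condition was 1 library with the number 1, while the exact test paired by time is in the report. In single libraries 28 to 58 cells held 50% of the member UMIs, and the intervals do not cover the sampling of these cells.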
